A study of Mus musculus with 3 samples.

Results

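Oxidative phosphorylation is the last stage of respiration, carried out by 5 protein complexes in the inner mitochondrial membrane. The genes described here are the nuclear genes of those complexes in sorted mouse lung lymphocytes. They were chosen by symbol: rows named Nduf (A, B, C, S or V), Cox4 to Cox8, Uqcr, Atp5 or Sdh (A to D) that reached 20 UMIs per 1000000 UMIs (UPM) in at least 1 library. Of 32285 features, 94 rows had such a symbol and 81 reached the level: 37 genes of complex I, 4 of complex II, 8 of complex III, 12 of complex IV, 17 of complex V and 3 assembly factors of complex I. The other 13 rows stayed under it, among them Ndufaf1, Ndufaf3, Ndufaf5, Ndufaf6 and Ndufaf7 and the isoforms Cox4i2, Cox6a2, Cox6b2, Cox7a1, Cox7b2, Cox8b, Cox8c and Ndufa4l2. Just inside the limit was Ndufaf2 (27.98 UPM at its highest) and just outside was Ndufaf3 (19.3 UPM).

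Complex I takes electrons from NADH and complex II takes them from succinate. Complex III passes them on to cytochrome c, complex IV hands them to oxygen, and complex V uses the proton gradient to make ATP. Most subunits are encoded in the nucleus, but mitochondrial DNA encodes core subunits of complexes I, III, IV and V, so both genomes must supply each of these complexes. Complex II is nuclear only. In resting lymphocytes oxidative phosphorylation is a main source of ATP, and it is known to support group 2 innate lymphoid cells (ILC2) in tissue.

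The cells came from lungs of GFI1BGFP mice, sorted by their GFP signal, and GFI1B is a transcriptional repressor. The labels give no strain and no other allele. All sorts shared a gate on live CD45+ lin- CD90.2+ IL-7R+ cells, and each of the 3 libraries is the only one of its group. The IL-18R+ pool mixes IL-18R+ CD103+ GFP- cells with IL-18R+ CD103- GFP+ cells in 1 library, with no map from barcodes to sorts. A second library is labelled IL-18R- CD103- GFP- and is called the library labelled negative below. The third holds IL-18R- ST2+ cells (the ST2+ library), ST2 being the IL-33 receptor that marks lung ILC2. The number, sex and age of the mice are not in the labels. Since a group is 1 library, no difference has a replicate check and no test was made. Values are UMIs summed over cells and divided by the total of the same cells, and intervals are 95% limits that cover counting error only. A ratio past 1.5 is a size rule, not a test.

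After filtering, the pool held 1655 cells, the library labelled negative 1872 and the ST2+ library 1611, at median depths of 4930, 4768 and 4568 UMIs. Il18r1, the IL-18 receptor gene, stood at 663.3 UPM in the pool, in the library labelled negative at 591.8 UPM and at 15.7 UPM in the ST2+ library, so its transcript goes against the IL-18R- label of the second. A transcript level is not a surface protein level. Itgae, which encodes CD103, stood at 99.8, 3.44 and 2.79 UPM in the same order, and so was low in the second, whose label reads CD103-. Gfi1b had 0 UMIs in every library. Despite the lineage gate, many cells carried T cell receptor transcripts, and cells were therefore also split by marker UMIs into gates: gamma delta T (882 cells in the pool, 1474 in the library labelled negative), alpha beta T (232 and 105), CD3-negative (210 and 145) and ILC2 (1151 in the ST2+ library, but 11 and 12 in the others). Cells of the other gates in the ST2+ library entered no ratio between gates. In the ILC2 gate of the ST2+ library the defining markers were present, as the gate requires, with Il1rl1 at 950.9 UPM and Gata3 at 972.7 UPM, and Trdc stood at 2.13 UPM. The 12 markers of B, myeloid, stromal, endothelial and epithelial cells summed to 1189, 155.7 and 681.1 UPM over all cells of the pool, the library labelled negative and the ST2+ library, and to between 21.5 and 45.1 UPM within the gates. The 4 globin genes, markers of erythroid cells, summed to 1603 UPM in the ST2+ library and to 6.47 and 1.04 UPM in the pool and the library labelled negative. Within the gates they stood at 86.4 UPM in the ILC2 gate of the ST2+ library and between 0.946 and 6.37 UPM in the gamma delta, alpha beta and CD3-negative gates. A gated cell could hold up to 2 UMIs of the 12 markers and under 20 globin UMIs. Low sums within the gates thus follow from the gating and are no check of it. One barcode sequence occurred in both the pool and the library labelled negative.

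The promoters of 4 members that recur below are shown first: Cox5a and Ndufs5, 2 of the 3 members past 1.5-fold between the pool and the ST2+ library, and the paralogues Cox7a2 and Cox7a2l, whose balance differed between lineages. Each is the 250 bases before the RefSeq start on GRCm38.p6, written 5' to 3' on the gene's strand, with motif matches in capitals. They lie at chr9:57520982-57521231 (plus strand, Cox5a), chr4:123718187-123718436 (minus, Ndufs5), chr9:79759854-79760103 (minus, Cox7a2) and chr17:83514334-83514583 (minus, Cox7a2l).
Cox5a: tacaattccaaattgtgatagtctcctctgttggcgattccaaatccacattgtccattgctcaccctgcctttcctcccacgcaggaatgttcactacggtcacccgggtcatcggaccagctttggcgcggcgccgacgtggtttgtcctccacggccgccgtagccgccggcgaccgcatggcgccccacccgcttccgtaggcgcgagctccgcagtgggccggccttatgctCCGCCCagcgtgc
Ndufs5: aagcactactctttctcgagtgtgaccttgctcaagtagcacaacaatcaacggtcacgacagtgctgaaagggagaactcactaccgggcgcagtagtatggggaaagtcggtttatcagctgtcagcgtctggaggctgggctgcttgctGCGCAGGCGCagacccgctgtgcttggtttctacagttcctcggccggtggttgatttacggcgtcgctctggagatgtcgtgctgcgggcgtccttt
Cox7a2: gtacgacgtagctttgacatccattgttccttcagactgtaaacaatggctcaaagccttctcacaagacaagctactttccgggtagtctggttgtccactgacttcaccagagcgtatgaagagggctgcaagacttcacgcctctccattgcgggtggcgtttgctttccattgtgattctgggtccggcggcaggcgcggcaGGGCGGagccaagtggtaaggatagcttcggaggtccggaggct
Cox7a2l: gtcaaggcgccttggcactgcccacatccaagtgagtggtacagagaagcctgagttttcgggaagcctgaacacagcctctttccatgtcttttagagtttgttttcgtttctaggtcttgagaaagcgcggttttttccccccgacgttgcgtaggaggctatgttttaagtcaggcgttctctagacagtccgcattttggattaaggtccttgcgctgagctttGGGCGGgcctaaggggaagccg
In the Ndufs5 window the capitals are a match to the NRF1 motif (GCGCA, any base, GCGC), 98 to 89 bases before the start, and in the others a GC box (GGGCGG on either strand), 13 to 8 bases before the start of Cox5a, 44 to 39 before Cox7a2 and 22 to 17 before Cox7a2l. GENCODE exons cover 16 bases of the Ndufs5 window, 25 of the Cox7a2 window and 0 of the others. The Cox7a2l window lies in an intron of the GENCODE gene (chr17:83501918-83517330), whose first exon starts further upstream.

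Motifs of 4 factors known to act on respiratory genes, and the GC box, were searched on both strands in the same window of every gene. RefSeq windows were matched for 67 of the 81 members. The NRF1 motif was in 14 of them (20.9%), against 4.23% of 27025 genes, and the ETS motif CCGGAAG, bound by GABP, was in 13 (19.4%) against 7.83%. NRF1 matches were found in genes of complexes I (Ndufa5, Ndufa8, Ndufa11, Ndufb4, Ndufs5, Ndufs6), II (Sdha, Sdhd), IV (Cox6a1) and V (Atp5c1, Atp5g2, Atp5h, Atp5k) and in the assembly factor gene Ndufaf4. The GC box was in 38.8% of members and 35.4% of all genes, the YY1 motif AAGATGG in 1 member, Atp5j (1.49%, all genes 5.18%), and the ERR motif TCAAGGTCA in 1, Atp5g3 (1.49%, all genes 0.422%). Each motif was counted on its own, so matches of different motifs may overlap. A match is a description of letters and not of binding.

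The members made up 2.06% of all UMIs in the pool, 1.87% in the library labelled negative and 1.84% in the ST2+ library. In UPM these sums were 20571 (20478 to 20666), 18705 (18619 to 18792) and 18370 (18275 to 18465). Every cell kept had at least 1 member UMI, and a cell of the 3 libraries held on average 111.5, 95.9 and 90.0 of them. The complexes kept nearly fixed proportions: in the pool complex I took 28% of member UMIs, complex II 1.28%, complex III 9.48%, complex IV 28.1% and complex V 32.3%. In the ST2+ library the same shares were 27.3%, 1.34%, 9.33%, 27.5% and 33.8%. A UMI tags 1 transcript end whatever the transcript's length, so these levels were not divided by length.

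**Figure D1:**
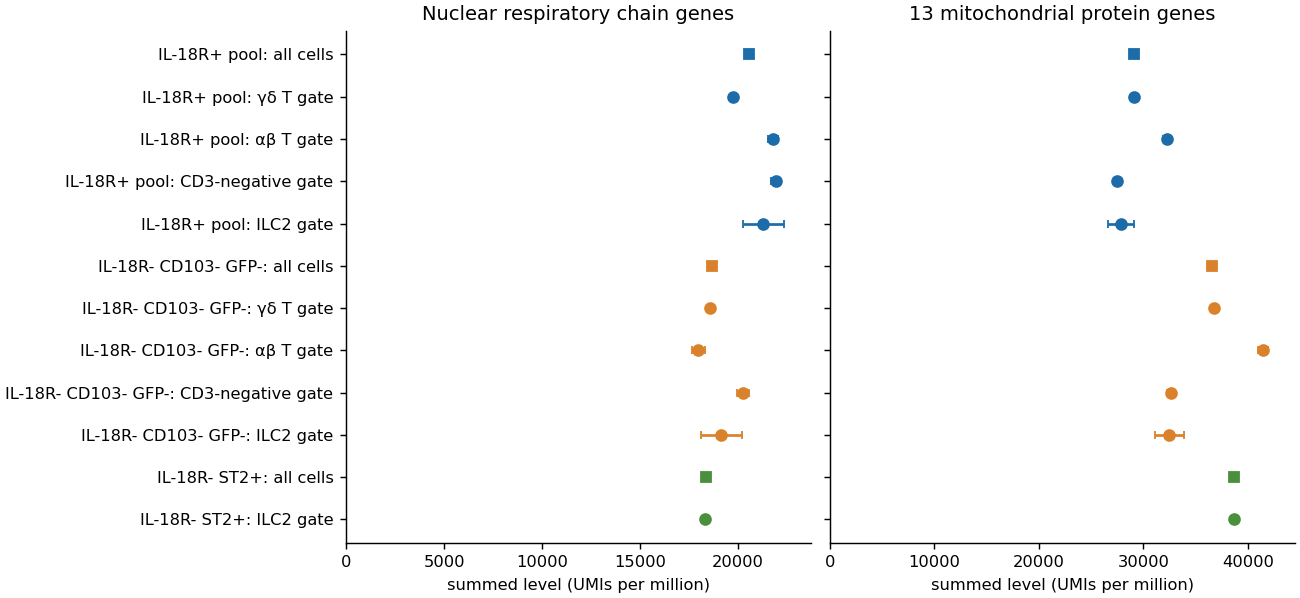
Summed level in UPM of the 81 nuclear genes (left) and of the 13 protein genes of mitochondrial DNA (right), for each library (squares) and each gate counted above (circles), with 95% counting intervals that are often narrower than the symbol. The nuclear sums run from 17989 to 21923 UPM, and the mitochondrial sums are lowest in the pool in every gate.

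Levels ranged widely within each complex. In complex I, Ndufa13, an accessory subunit also known as GRIM-19, was highest at 412.8, 385.4 and 352.9 UPM in the pool, the library labelled negative and the ST2+ library, ahead of Ndufb1-ps (310.0 UPM in the pool) and Ndufa2 (305.2 UPM). Ndufb1-ps is annotated as a non-coding transcript of a bidirectional promoter on chromosome 12, and its reads could be shared with near-identical copies. The lowest was Ndufs1, the large iron-sulphur subunit that carries electrons from NADH, at 27.0, 29.7 and 26.6 UPM. In complex III the hinge protein gene Uqcrh (631.8, 627.7 and 730.4 UPM) led Uqcr10 and Uqcrb, while the core protein gene Uqcrc1 was lowest (59.6, 60.6 and 57.4 UPM). In complex IV of the pool, Cox8a (839.5 UPM), Cox7c (747.6 UPM) and Cox6c (745.7 UPM) led and Cox6a1 was lowest (240.8 UPM). In the ST2+ library Cox5a (201.0 UPM) lay under Cox6a1 (212.7 UPM). In complex V, Atp5e, the epsilon subunit of ATP synthase, was the highest member of all at 923.8, 851.1 and 896.0 UPM, followed by Atp5md (666.5 UPM in the pool) and Atp5l (548.9 UPM). Atp5o, the stalk subunit that confers oligomycin sensitivity, was lowest at 154.3, 154.7 and 145.3 UPM.

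The 4 genes of complex II, which also works in the citric acid cycle, were all low. Sdha, the flavoprotein that oxidises succinate, stood at 89.0, 87.5 and 89.0 UPM in the 3 libraries, which do not differ beyond counting error. Sdhb, the iron-sulphur subunit, stood at 92.3, 65.6 and 80.5 UPM. The membrane anchors Sdhc (34.2, 35.2 and 38.8 UPM) and Sdhd (47.0, 45.8 and 38.7 UPM) were lower. The complex I assembly factors Ndufaf8, Ndufaf4 and Ndufaf2 stood at 95.1, 41.4 and 27.98 UPM in the pool.

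Between the pool and the library labelled negative no member differed by 1.5-fold. This was 0 of 81 higher in either library, where among 5812 measured genes the pool was higher for 5.25% and the other for 1.98%. The summed ratio was 1.10 (1.093 to 1.107), but it fell to 1 with trimmed mean (TMM) scaling, which moved every log2 ratio of this pair by -0.14, and to 1.038 with ribosomal protein and mitochondrial genes left out of the total. The median log2 ratio of the members was 0.15, and that of all measured genes was 0.10. Complexes I, II, III, IV and V had ratios of 1.101, 1.121, 1.102, 1.093 and 1.103, and of 1.002, 1.02, 1.002, 0.9946 and 1.004 with TMM, where complex IV changed direction. The largest single ratios in the pool's favour were Sdhb (1.406, 1.266 to 1.562), Atp5d, the delta subunit of ATP synthase (1.371), and Ndufa8 (1.326). Those in the other direction were Atp5k, a subunit of the membrane part (1.165-fold higher in the library labelled negative), Cox7a2l (1.116-fold) and Ndufb1-ps (1.086-fold).

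Against the ST2+ library the pool had 3 members above 1.5-fold, Cox5a, Uqcrb and Ndufs5, and 0 below, where among 5930 measured genes the pool was higher for 27.1% and the ST2+ library for 7.4%. The share of members past the rule was thus under the background, and with TMM the pool had 0 members past it and the ST2+ library 1. The summed ratio was 1.12 (1.112 to 1.128) over all UMIs, 0.9999 with ribosomal protein and mitochondrial genes left out of the total, and 0.9207 with TMM (a log2 shift of -0.28), so its direction rests on the scaling. All measured genes had a median log2 ratio of 0.30 in this pair and the members 0.20, and 23 of 81 members lay above the median gene. At 2-fold no member passed, against 12.3% and 4.33% of all measured genes. Complexes I, III and IV had ratios of 1.148, 1.138 and 1.145 and complexes II and V of 1.064 and 1.072, all of them under 1 with TMM (0.8745 to 0.9443). Between the library labelled negative and the ST2+ library the sums differed little (1.018, and 0.9204 with TMM, a log2 shift of -0.15), against an all-gene median log2 ratio of 0.19. There, 0 members were higher in the first (background 21.8%) and 1, Ndufv1, was higher in the ST2+ library (background 9.27%). No member passed 2-fold there (background 9.57% and 5.4%).

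**Figure D2:**
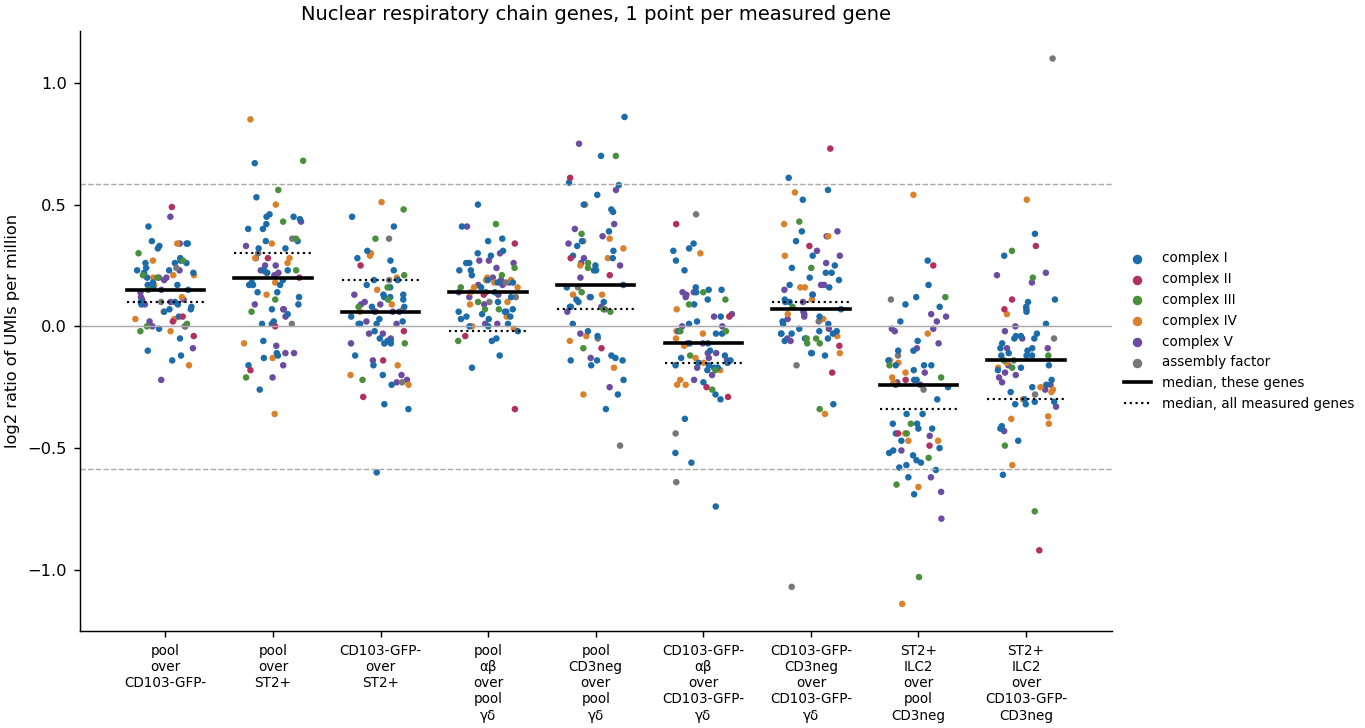
Log2 ratio of UPM for each measured member in 9 comparisons, coloured by complex, with the median of the members (solid bar) and of all measured genes (dotted bar). Dashed lines mark 1.5-fold. CD103-GFP- stands for the library labelled negative, ST2+ for the ST2+ library and CD3neg for the CD3-negative gate. Most members lie within 1.5-fold. The solid and dotted bars lie on the same side of 0 except for alpha beta over gamma delta in the pool (0.14 against -0.02).

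Cox5a, a nuclear subunit of cytochrome c oxidase encoded on chromosome 9, stood at 362.4 UPM in the pool, 286.8 UPM in the library labelled negative and 201.0 UPM in the ST2+ library. It was 1.803-fold higher (1.698 to 1.916) in the pool than in the ST2+ library, and 1.483-fold higher with TMM. Over the gates it was highest in the CD3-negative gate of the pool (434.8 UPM, 402.6 to 469.0), equal in that library's gamma delta (340.6 UPM) and alpha beta (340.9 UPM) gates, and lowest in the ILC2 gate (196.9 UPM, 185.5 to 208.9). The gamma delta (286.2 UPM), CD3-negative (293.1 UPM) and alpha beta (242.4 UPM) gates of the library labelled negative lay between, with overlapping intervals for gamma delta and CD3-negative. The few ILC2-gate cells of the pool gave 177.7 UPM from 13 UMIs (94.6 to 303.8), and those of the library labelled negative 270.9 UPM from 18 UMIs (160.5 to 428.1). Both intervals hold the value of the ILC2 gate in the ST2+ library as well as that of the gamma delta gate in the library labelled negative. Within the pool, however, the upper limit of 303.8 UPM lay under the values of the gamma delta, alpha beta and CD3-negative gates of that library. In the library labelled negative the interval held the values of all its other gates.

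Uqcrb, the ubiquinone-binding protein of complex III, stood at 286.7, 249.3 and 178.4 UPM in the pool, the library labelled negative and the ST2+ library. Its ratio of pool to ST2+ library was 1.607 (1.505 to 1.716), and 1.321 with TMM. Ndufs5, an accessory subunit of complex I with an NRF1 match in the window printed above, stood at 208.9, 173.7 and 131.0 UPM, a ratio of 1.594 (1.477 to 1.722), and 1.311 with TMM. Both fell in the same library order as Cox5a, and all 3 were past the rule also for the ILC2 gate against the pool's gamma delta gate. That gate was 1.672-fold (Uqcrb), 1.734-fold (Ndufs5) and 1.73-fold (Cox5a) higher, and under 1.5-fold for each with TMM. These were the 3 members of 81 past the rule in that pair, where 26.9% of all measured genes were lower in the ILC2 gate by the same rule and 9.83% were higher (members 0).

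Cox7a2l and Ndufv1 ran the other way. Cox7a2l, a COX7A paralogue known for joining complexes III and IV into supercomplexes, stood at 256.8, 286.6 and 328.6 UPM in the pool, the library labelled negative and the ST2+ library. It was 1.279-fold higher (1.209 to 1.354) in the ST2+ library than in the pool, and 1.556-fold with TMM. Ndufv1, the flavoprotein where NADH binds complex I, stood at 50.2, 39.6 and 59.9 UPM, and was 1.514-fold higher (1.32 to 1.737) in the ST2+ library than in the library labelled negative. It was also the 1 member past the rule between the ILC2 gate and the gamma delta gate of the library labelled negative, 1.59-fold higher in ILC2 (background 10.3%), with 0 lower (background 23%).

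**Figure D3:**
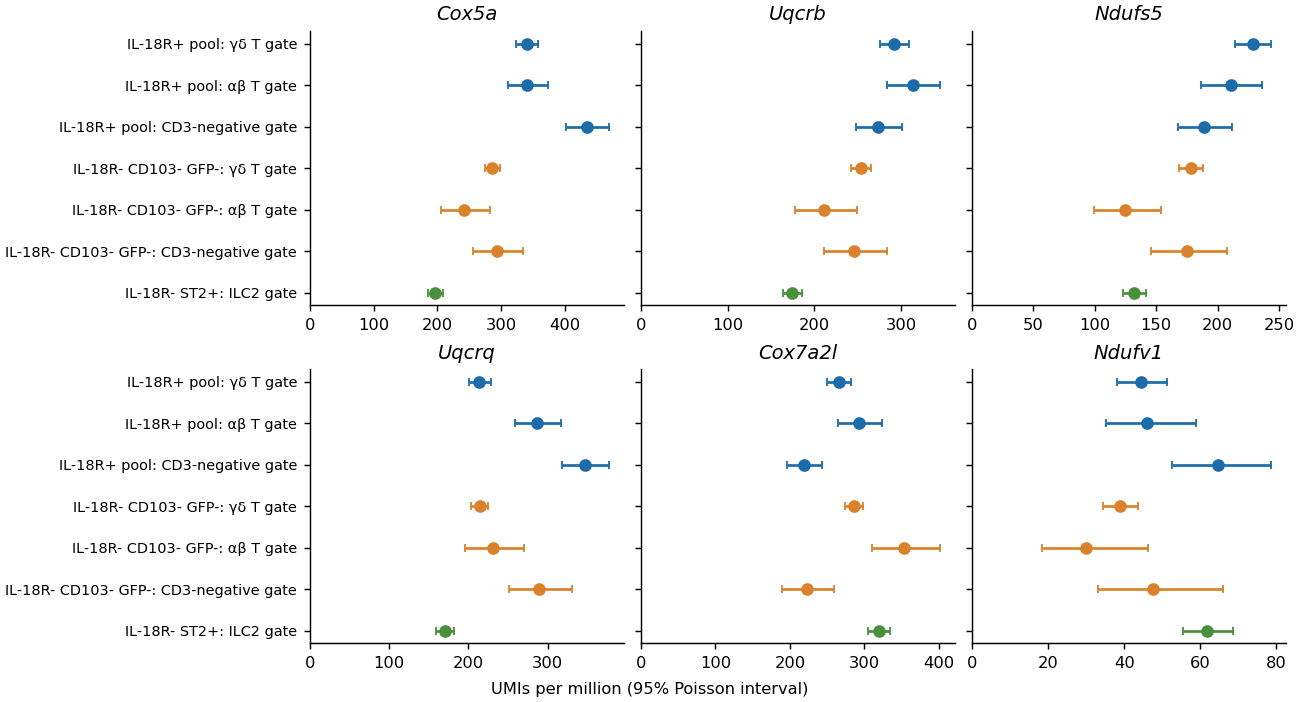
Level in UPM of 6 members in 7 gates, with 95% Poisson intervals and colours by library as named on the axis. Cox5a, Uqcrb and Ndufs5 are at or near their lowest in the ILC2 gate, Uqcrq is highest in the CD3-negative gates and Cox7a2l is lowest there.

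Within the pool, the alpha beta gate stood above the gamma delta gate, beyond counting error for complexes I, III, IV and V and within it for complex II. Summed levels were 21784 UPM (21536 to 22035) and 19744 UPM (19611 to 19878), a ratio of 1.103 (1.089 to 1.118), and 1.099 with TMM. Of 81 members 72 were above 1 and 74 above the median of all measured genes, which was -0.02 in log2 against 0.14 for the members. No member passed 1.5-fold in either direction (background 5.38% higher in alpha beta and 8.74% higher in gamma delta). The ratios by complex were 1.074 (I), 1.069 (II, 0.9432 to 1.208), 1.113 (III), 1.086 (IV) and 1.143 (V). Ndufv2, which holds an iron-sulphur cluster beside Ndufv1, had the largest ratio (1.413, 1.102 to 1.802), followed by Uqcrq (1.342) and Ndufb3 (1.332). The mitochondrial protein genes had a ratio of 1.107 in the same pair.

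In the library labelled negative the same contrast was 0.9682 (0.9503 to 0.9865), with 17989 UPM in the alpha beta gate and 18579 UPM in the gamma delta gate, but it turned to 1.042 with TMM (a log2 shift of 0.11) and 1.106 with ribosomal protein and mitochondrial genes left out of the total. Its median log2 ratio was -0.07 over members and -0.15 over all measured genes. Here 0 members were higher in alpha beta (background 6.38%) and 2 were higher in gamma delta (background 19.2%): Ndufs7, an iron-sulphur subunit of complex I (102.8 against 61.4 UPM), and Ndufaf2 (25.7 against 16.5 UPM, from 11 UMIs in the alpha beta gate). At 2-fold none passed (background 2.18% and 7.46%). The alpha beta gate of this library was a mixture of cells. Of its 105 cells 52 fell in a cluster led by Dapl1, Ly6c2 and Ccl5, and 33 in the cluster led by genes including Cd40lg, Trac and Ccr6 that held 185 of the 232 alpha beta cells of the pool. The first had 42.9% of UMIs in cytosolic ribosomal protein genes and members at 15935 UPM. The second had 24.3% and members at 21542 UPM (20858 to 22242), near the 22090 UPM (21808 to 22375) of the same cluster in the pool. With ribosomal protein and mitochondrial genes left out of the total the members stood at 30161, 30066 and 31082 UPM in these 3 groups of cells. With the Ccl5-high cluster left out, an alternative added after the data were seen, the ratio was 1.095.

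The gamma delta gate of the library labelled negative held 296 cells of that cluster too. They had 39.9% ribosomal protein UMIs and members at 16480 UPM (16303 to 16658), under the 18801 to 20005 UPM of its other clusters of 57 cells or more. Without ribosomal protein and mitochondrial genes in the total they stood at 29419 UPM, above the 25723 to 28185 UPM of the others. In the ILC2 gate both main clusters had similar ribosomal shares, 31.1% and 32%, with members at 17643 and 18989 UPM. The CD3-negative gate of the ST2+ library held 28 and 29 cells of the same clusters. Their members stood at 18705 UPM (17955 to 19478) and 19214 UPM (18401 to 20054). Mitochondrial sums there were 36572 and 40021 UPM, beside 36840 and 40996 UPM in the ILC2 gate. Over all its 824 cells, 221 of them outside every gate, the second of these clusters was led by the globin genes Hbb-bt, Hbb-bs, Hba-a2 and Hba-a1. The same list also held Krt80, Il9r, Rnf128, Ccdc184, Dach2 and Pparg. In the whole ILC2 gate of the ST2+ library the globin genes had 3, 43, 34 and 406 UMIs in that order. The leading genes of the gated cells alone were not ranked.

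**Figure D4:**
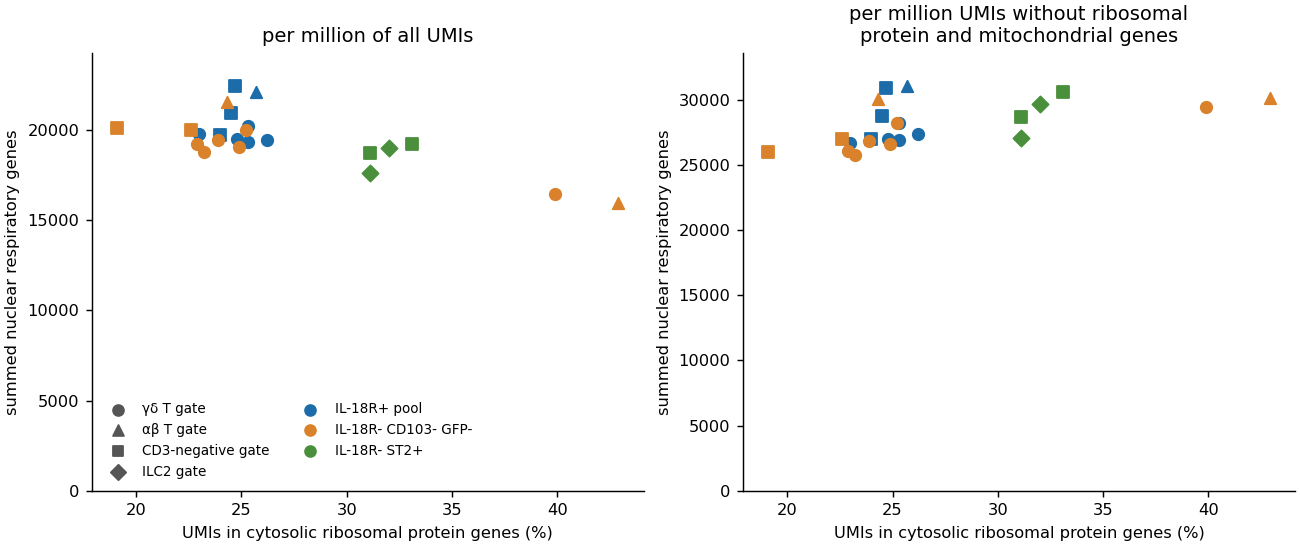
Summed level of the members against the share of UMIs in cytosolic ribosomal protein genes, for each cluster within each gate, in UPM of all UMIs (left) and of the rest once ribosomal protein and mitochondrial genes are left out (right). Colours are libraries and symbols are gates. The groups with 39.9% and 42.9% ribosomal UMIs are lowest on the left, at 16480 and 15935, and not on the right.

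The CD3-negative gate of the pool had members at 21923 UPM (21690 to 22158), a ratio of 1.11 (1.096 to 1.124) to its gamma delta gate, or 1.012 with TMM (a log2 shift of -0.13). There were 6 members higher by 1.5-fold and 0 lower, where 15.7% of 5984 measured genes were higher and 13.2% lower. Ndufv2 led with 93.0 against 51.4 UPM, a ratio of 1.811 (1.457 to 2.245). Atp5g3, 1 of 3 genes for the c subunit that forms the rotor ring of ATP synthase, stood at 320.5 against 190.2 UPM (1.685). Uqcrq, a small subunit of complex III, stood at 346.3 against 213.8 UPM (1.62). Ndufab1, the mitochondrial acyl carrier protein, had the same ratio (1.62), and Sdhb (1.527) and Ndufc2 (1.502) were near the threshold. With TMM 2 members were higher and 1 lower. On the low side of 1, Ndufaf8 was 1.408-fold, Ndufs7 1.262-fold and Ndufs5 1.212-fold higher in the gamma delta gate. At 2-fold no member passed, against 6.73% of measured genes in each direction.

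Cycling cells moved with this contrast. In the pool's CD3-negative gate 22 of 210 cells had 3 or more UMIs of 6 cycling genes, against 3 of 882 in its gamma delta gate, and those genes summed to 455.5 and 17.9 UPM. Among cells within the limit for other cell types, cycling cells had members at 27983 UPM in the pool, 25614 UPM in the library labelled negative and 23880 UPM in the ST2+ library, and the other cells 20278, 18591 and 18372 UPM. Cycling cells numbered 41, 15 and 6, and their median depths were 13817, 9593 and 13223 UMIs. Without cycling cells the CD3-negative to gamma delta ratio was 1.041 and 2 members passed the rule in place of 6. In the library labelled negative, where 4 of 145 cells of the CD3-negative gate were cycling, the ratio was 1.091 (1.072 to 1.109), or 0.9758 with TMM (a log2 shift of -0.16) and 0.9965 without ribosomal protein and mitochondrial genes. There, 2 members were higher (background 16%), Sdhd at 73.3 against 44.0 UPM and Ndufb2 at 137.1 against 90.1 UPM, and 1 was lower (background 8.33%), Ndufaf2 at 12.2 UPM from 9 UMIs against 25.7 UPM. With TMM 0 were higher. Only Ndufaf2 passed 2-fold (background 6.07% higher and 3.74% lower). The CD3-negative gates also differed in make-up. In both libraries they held a cluster led by Gzma and Ncr1 and another with Il22 among its leading genes, but a cluster with Ccr10 and Itgae among its leading genes held 63 such cells of the pool (members at 22463 UPM).

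Between the pool and the library labelled negative, gate by gate, the gamma delta gates differed least. Their summed ratio was 1.063 (1.054 to 1.072) and 0 of 81 members passed the rule in either direction (background 3.16% higher in the pool and 2.81% lower). Atp5md, a small membrane subunit of ATP synthase, had the largest ratio at 679.4 against 512.2 UPM (1.326). In the alpha beta gates the ratio was 1.211, or 1.075 with TMM (a log2 shift of -0.17), and 10 of 78 measured members were higher in the pool and 0 lower, where 24.8% of 3654 measured genes were higher and 4.63% lower. Atp5md again led (899.8 against 511.8 UPM, 1.758), followed by Ndufs5 (1.695) and Atp5d (1.691). This pair holds the Ccl5-high cells of the library labelled negative. In the CD3-negative gates 2 of 79 measured members were higher in the pool, Ndufb9 (1.592) and Ndufa11 (1.571), both accessory subunits of complex I, and 0 lower (background 12.3% and 7.3%).

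The ILC2 gate of the ST2+ library stood at 18345 UPM (18233 to 18457), which is 0.8368 times (0.8266 to 0.8471) that of the pool's CD3-negative gate over all UMIs, 0.9488 without ribosomal protein and mitochondrial genes in the total, and 1.065 with TMM (a log2 shift of 0.35). All measured genes had a median log2 ratio of -0.34 in this pair and the members -0.24. There were 10 members lower in ILC2 (background 32.9%) and 0 higher (background 9.83%), and at 2-fold 2 lower (background 13.6%) and 0 higher (background 5.3%). With TMM 2 were lower and 3 higher at 1.5-fold, so the balance of the count rests on the scaling, and without cycling cells 6 were lower. The largest gaps were Cox5a (196.9 against 434.8 UPM, 2.208-fold), Uqcrq (170.1 against 346.3 UPM, 2.036-fold) and Atp5g3 (185.0 against 320.5 UPM, 1.732-fold). On the higher side, Cox7a2l had 319.0 against 219.0 UPM, a ratio of 1.457 (1.296 to 1.641), and Ndufa3, an accessory subunit of complex I, had 1.207. Against the CD3-negative gate of the library labelled negative the sum was 0.9054, or 1.126 with TMM (a log2 shift of 0.31), with 3 members lower in ILC2 (Sdhd, Uqcrq and Ndufa9; background 29.1%) and 1 higher (Ndufaf2; background 8.61%). With TMM that count was 1 lower and 6 higher. At 2-fold 0 were lower (background 11.3%) and 1 was higher, again Ndufaf2 from 9 UMIs in the CD3-negative gate (background 4.43%). Library and lineage cannot be told apart in these pairs. Globin transcripts move with them too (86.4 UPM in this ILC2 gate, 5.82 and 1.36 UPM in the CD3-negative gates), and their part was not tested. The ILC2-gate cells inside the other libraries had members at 21291 UPM (20247 to 22375, 11 cells, pool) and 19141 UPM (18104 to 20223, 12 cells, library labelled negative), above the gamma delta gate of the same library in the pool and within counting error of it in the other.

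Transcripts of mitochondrial DNA took another order over the libraries. The 13 protein genes summed to 29087 UPM in the pool (28975 to 29199), 36595 UPM (36474 to 36717) in the library labelled negative and 38691 UPM (38554 to 38829) in the ST2+ library. Per nuclear member UMI this was 1.414, 1.956 and 2.106 mitochondrial UMIs, a quotient that needs no library total. The pool was lower gate by gate: the ratio of mitochondrial UPM in the pool to that in the library labelled negative was 0.7919 in the gamma delta, 0.777 in the alpha beta and 0.8428 in the CD3-negative gate. The nuclear members had 1.063, 1.211 and 1.082 in the same gates. ILC2-gate cells followed the library as well, with mitochondrial sums of 27823 UPM in the pool, 32474 UPM in the library labelled negative and 38631 UPM in the ST2+ library. Median mitochondrial shares per cell were 2.88%, 3.59% and 3.83% in the same order.

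Within the libraries the same quotient also differed between lineages. In the pool it was 1.474 in the gamma delta, 1.479 in the alpha beta and 1.254 in the CD3-negative gate, and in the library labelled negative 1.979, 2.305 and 1.61. The CD3-negative gate was lowest in both. By gene, the complex I subunit mt-Nd3 had the largest gap, at 385.8 UPM against 640.2 and 748.7 UPM in the others, and mt-Co3 of complex IV stood at 3458, 5064 and 5070 UPM. The complex I subunit gene mt-Nd4 was not lowest in the pool, with 2378, 2202 and 2810 UPM, and mt-Nd4l, which shares a transcript with it, stood at 510.3, 508.4 and 550.1 UPM. Of complex V, mt-Atp6 was highest of the 13 in each library (6515, 8386 and 7972 UPM).

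**Figure D5:**
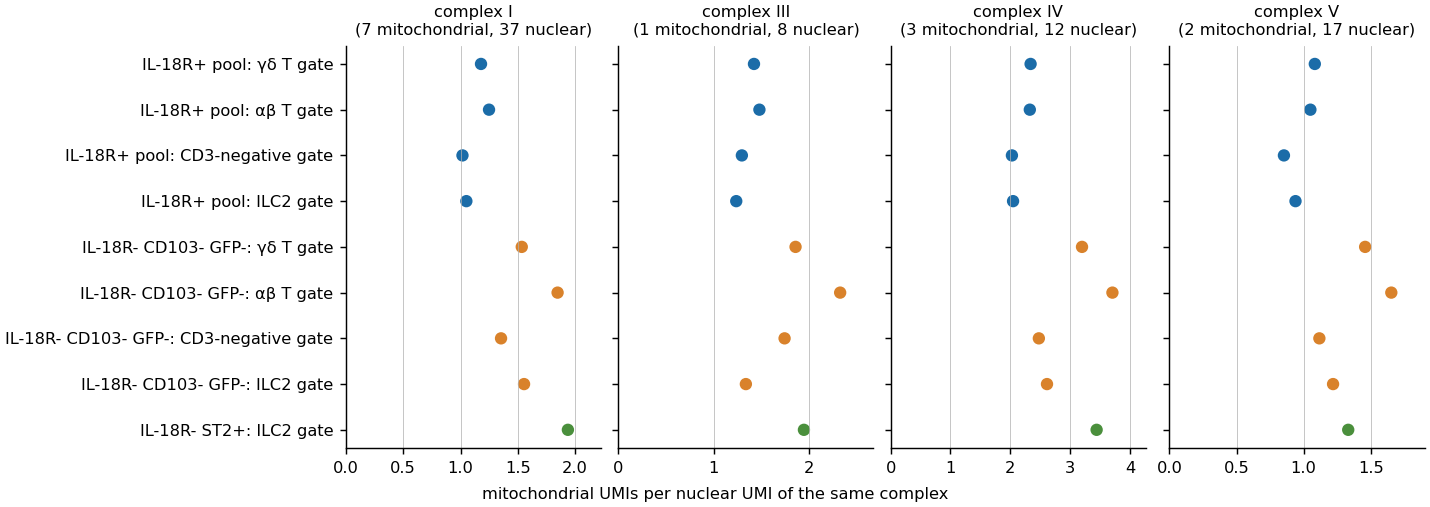
UMIs of mitochondrial genes per UMI of nuclear members of the same complex, for complexes I, III, IV and V, in each gate counted above. Axes start at 0 and differ between panels. In each panel the gates of the pool lie below the same gates of the other libraries, and complex IV has the highest quotients.

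Several subunits have paralogues, and 1 isoform took nearly all UMIs in most families. Cox4i1 made up 99.5% to 100% of Cox4i UMIs in the libraries, Cox6a1 99.5% to 99.9% of Cox6a, Cox6b1 99.3% to 99.8% of Cox6b and Ndufa4, a subunit of complex IV despite its name, 99.6% to 100% with its paralogue Ndufa4l2. Cox4i2 and Ndufa4l2, known from lung vascular and hypoxic cells, had 22 and 21 UMIs in the pool, 0 in the library labelled negative and 11 and 5 in the ST2+ library, and all were in cells past the limit for markers of other cell types. Cox7b2 and Cox8c had 0 UMIs, which allows up to 0.334, 0.313 and 0.38 UPM (3 UMIs) in the 3 libraries. Cox7a1, the heart and muscle isoform, was low but not confined to such cells: it had 39 UMIs in the gamma delta gate of the pool and 50 in that of the library labelled negative, or 1.47% and 1.09% of Cox7a UMIs, and 3 UMIs or 0.0737% (0.0152 to 0.215) in the ILC2 gate. Whether free RNA contributes to so low a level was not tested.

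The 2 remaining families were mixed. Cox7a2l took 42.6% (40.7 to 44.5) of Cox7a UMIs in the pool's gamma delta gate, 43.0% in its alpha beta gate and 32.5% (29.6 to 35.4) in its CD3-negative gate. In the library labelled negative the shares were 46.1% (44.7 to 47.6), 52.0% and 31.5% (27.5 to 35.7), and the ILC2 gate had 44.1% (42.6 to 45.7). The CD3-negative gate was thus lowest in both libraries that had one in numbers, and these shares rest on no library total. The other side of the balance was Cox7a2, at 448.4 and 479.0 UPM in the CD3-negative gates against 349.1 and 327.4 UPM in the gamma delta gates. Among the c subunit genes Atp5g2 led everywhere, with 43.4% to 49.7% of their UMIs in the gates of the pool and the library labelled negative and 51.6% (50.2 to 53.1) in the ILC2 gate of the ST2+ library. Atp5g3 took 31.1% (28.8 to 33.5) in the pool's CD3-negative gate and 21.9% (20.6 to 23.3) in its gamma delta gate.

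Other lists of energy metabolism genes held members with wider gaps between the pool and the ST2+ library. Their counts stand beside a background of 27.1% of all measured genes higher in the pool and 7.4% lower, and counts with TMM were added after the data were seen. Of 15 measured glycolysis genes 6 had more in the pool and 2 more in the ST2+ library (4 and 3 with TMM), led by Hk2, a hexokinase (338.2 against 55.4 UPM, 6.108-fold), and Pfkp, a phosphofructokinase (171.0 against 38.0 UPM, 4.499-fold). Of 9 regulators of respiratory genes 4 were higher in the pool and 1 lower, or 2 and 1 with TMM. Among the 4 was Tfam, which packages mitochondrial DNA and acts in its transcription (49.5 against 18.8 UPM, 2.639-fold). The lower was Myc (15.2 against 50.9 UPM). Of 66 mitochondrial ribosomal protein genes 18 were higher and 0 lower (4 and 2 with TMM), a share near the background, with a median log2 ratio of 0.27 where all measured genes had 0.30. Of 16 citric acid cycle genes 1 was higher (Dld, 1.594-fold) and 1 lower (Pdha1), or 0 and 1 with TMM, and of 6 electron carrier and complex III catalytic genes 0 passed in either direction on both scales. Among 14 other assembly factors, Sdhaf1, which helps insert iron-sulphur clusters into complex II, stood at 35.1 against 137.5 UPM, while Tmem70 was 1.804-fold higher in the pool (0 higher and 2 lower with TMM).

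The same lists were counted for the CD3-negative gates, and not every list is given here. In the pool 5 of 17 citric acid cycle genes were higher there than in the gamma delta gate and 0 lower (2 and 1 with TMM), where 15.7% of all measured genes were higher and 13.2% lower. They were led by Idh2 (34.9 against 8.25 UPM) and Fh1 (41.4 against 14.6 UPM). Of 6 electron carrier genes 2 were higher and 0 lower (1 and 0 with TMM), Cycs, which encodes cytochrome c (231.3 against 115.5 UPM), and Etfb (126.6 against 79.9 UPM). In the library labelled negative the citric acid cycle count was 3 of 16 higher and 0 lower (1 and 1 with TMM), where all measured genes had 16% higher and 8.33% lower, with Fh1 at 33.9 against 16.8 UPM. Of 6 electron carrier genes in that library 1 was higher and 1 lower, with TMM too. Glycolysis genes went both ways. In the pool 5 of 15 were higher and 3 lower (1 and 4 with TMM). The library labelled negative had 2 of 16 higher and 2 lower (1 and 3 with TMM). Tfam was 96.9 against 34.7 UPM in the pool but 12.2 against 56.2 UPM in the library labelled negative, opposite directions in the 2 libraries, the value of 12.2 UPM resting on 9 UMIs. Median log2 ratios of the citric acid cycle lists were 0.33 and 0.32, of the members 0.17 and 0.07, and of all measured genes 0.07 and 0.10, in the pool and the library labelled negative. Cycling cells were 22 of 210 in the pool's CD3-negative gate and 3 of 882 in its gamma delta gate. Their part in these list values was not tested.

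Per cell, the median share of member UMIs was 1.95% in the gamma delta, 2.13% in the alpha beta and 2.07% in the CD3-negative gate of the pool. It was 1.84%, 1.79% and 2.00% in the library labelled negative and 1.80% in the ILC2 gate. The quartiles overlapped in all of these, for example 1.72% to 2.20% in the pool's gamma delta gate and 1.57% to 2.05% in the ILC2 gate. With each cell thinned to 2000 UMIs the medians were 1.95%, 2.10% and 2.10% for the pool, 1.85%, 1.85% and 2.00% for the library labelled negative, and 1.80% for the ILC2 gate, leaving out between 0 and 15 shallower cells per gate. In the pool's CD3-negative gate the deepest 70 cells (median 10326 UMIs) had members at 23279 UPM and the shallowest 70 (4003 UMIs) 20256 UPM, whereas in the alpha beta gate of the library labelled negative the deepest 35 cells had 15669 UPM and the shallowest 35 had 19146 UPM.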

How the data were processed

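Lung lymphocytes were profiled with 10x 3' chemistry in 3 libraries, each a group taken from its title. Per the file headers, the deposited values are counts of UMIs per gene and barcode, not normalised. The submitters' processing notes name Cell Ranger 6.0.1 and mm10, and other settings are not given in the sources read.

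Barcodes needed 500 genes or more and no more than 10% mitochondrial UMIs. Scrublet (scanpy 1.11.5) removed 4, 11 and 11 cells, and whether doublets remain was not tested. The kept libraries held 8970571, 9598728 and 7891960 UMIs. Gates required 2 or more UMIs of Cd3d, Cd3e and Cd3g with Trdc above Trac (gamma delta) or Trac without Trdc (alpha beta), or no more than 1 such UMI with Il1rl1 and Gata3 (ILC2) or with Ptprc, Il7r or Thy1 and without Il1rl1, Trac and Trdc (CD3-negative). Gated cells had up to 2 UMIs of other cell types' markers and under 20 erythroid UMIs. Cells outside every gate numbered 320, 136 and 366 and count in the library sums. The 18 Leiden clusters were computed without member, mitochondrial and ribosomal protein genes.

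A gene was measured in a pair at 20 UPM and 50 UMIs or more in either group, and passed the size rule at a ratio of 1.5, with sums raised to a floor of 3 UMIs. Intervals are 95% Poisson or Clopper-Pearson limits. The calculation was tested on simulated data. TMM factors came from edgeR 4.0.16, used for nothing else. Promoters are from RefSeq (GRCm38.p6) and gene types and exons from GENCODE M21 (GRCm38).

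Named members were, per pair, up to 3 per direction with the largest ratio at 50 UPM or more, the 3 highest and the lowest per complex, paralogue families, Sdh genes and assembly factors, and from each other list up to 3 genes. Other members named beside a count or a motif were chosen after their values were seen. The members and lists were chosen with earlier results of these data known. Alternatives changed the scaling, filters, gates, depth, cycling cells and size rule.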

Additional observations from a re-analysis of the deposited data

Results flagged for a closer look

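The contrast of the alpha beta T gate with the gamma delta T gate went opposite ways in the libraries that held both, when levels were taken over all UMIs and cells were split by gates. The summed level of the members had a ratio of 1.103 in the IL-18R+ pool and 0.9682 in the library labelled negative. The difference between these ratios was not tested, since each is 1 library. Both ratios were above 1 with TMM (1.099 and 1.042) and, at 1.14 and 1.106, without ribosomal protein and mitochondrial genes in the total. The second was also above 1 with cells of 3000 to 7000 UMIs (1.072) and with clusters in place of gates (1.127). In the second library 52 of the 105 alpha beta cells were in the Ccl5-high cluster with 42.9% ribosomal protein UMIs, and without that cluster the ratio was 1.095.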

How the results depend on the processing

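Of 163 alternative values 89 stayed on the same side within the limits set, 60 moved and 14 reversed, and each bears on 1 library per group with no test. Scaling was behind most reversals, by construction a change of denominator. Summed ratios with TMM were 1 (pool over the library labelled negative), 0.9207 (pool over ST2+) and 0.9204 (labelled negative over ST2+). For gates they were 1.012 (pool CD3-negative over gamma delta), 1.042 (alpha beta over gamma delta) and 0.9758 (CD3-negative over gamma delta) in the library labelled negative, and 1.065 and 1.126 for ILC2 over the CD3-negative gates of the pool and of that library. Without ribosomal protein and mitochondrial genes in the total the library ratios in that order were 1.038, 0.9999 and 0.9636. The gate ratios were 1.14 (pool alpha beta over gamma delta), 1.09, 1.106, 0.9965, 0.9488 and 1.047.

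With cells of 3000 to 7000 UMIs the library ratios were 1.059, 1.1 and 1.039, and the gate ratios 1.058 (pool CD3-negative), 1.072 (alpha beta) and 1.048 (CD3-negative) of the library labelled negative, 0.8706 and 0.9219 (ILC2). With every deposited barcode the ratios of the library labelled negative to the others were affected, at 1.088 (pool over it) and 1.034 (over ST2+). Without cycling cells values were 1.079 and 1.097 (pool over the others), 1.088 and 1.041 (pool alpha beta and CD3-negative over gamma delta) and 0.8929 (ILC2 over the pool's CD3-negative gate). With clusters in place of gates they were 1.078, 1.144, 1.127 and 1.127 for the alpha beta and CD3-negative ratios to gamma delta in the pool and the library labelled negative, and 0.8157 for ILC2 over the pool's CD3-negative gate. Chosen after seeing the data, leaving out cells past the limit for other cell types gave 1.112 and 1.128 for the pool over the others, and leaving out the Ccl5-high cluster gave 1.095 and 1.047 for the alpha beta and CD3-negative ratios in the library labelled negative.

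At 2-fold the counts that changed were 0, except 2 members lower in ILC2 than in the pool's CD3-negative gate (reported as 10), while Ndufaf2 stayed past the rule in both pairs that hold the CD3-negative gate of the library labelled negative. With TMM they were 0 higher in the pool and 1 higher in ST2+ (reported as 3 and 0), and 2 and 1 for the pool's CD3-negative gate over and under gamma delta (reported as 6 and 0). In the library labelled negative they were 1 lower in alpha beta (reported as 2) and 0 higher in the CD3-negative gate (reported as 2). For ILC2 they were 3 higher and 2 lower against the pool's CD3-negative gate (reported as 0 and 10), and 6 higher and 1 lower against the other (reported as 1 and 3). With a minimum of 50 UPM 1 was lower in alpha beta, 0 lower in the CD3-negative gate and 0 higher in ILC2. Without cycling cells, an alternative added later for these counts, 2 were higher in the pool's CD3-negative gate, 1 in that of the library labelled negative, and 6 lower in ILC2. Without the Ccl5-high cluster 4 members were higher in alpha beta in that library (reported as 0).

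Mitochondrial UMIs per member UMI were 1.43, 1.976 and 2.243 with every barcode and 1.392, 1.863 and 1.976 with at most 5% mitochondrial UMIs, in the order pool, labelled negative and ST2+ throughout. Thinned medians moved to 2.1% in the pool's alpha beta and CD3-negative gates and to 1.85% in the alpha beta gate of the library labelled negative. Depth limits the 11 and 12 ILC2-gate cells of those libraries, where Cox5a rests on 13 and 18 UMIs. No paired analysis was possible because each group has a single library without a replicate number.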
